A study of Mus musculus with 12 samples.

Results

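The monocyte chemoattractant genes Ccl2, Ccl7, Ccl8, Ccl11 and Ccl12 form a cluster on mouse chromosome 11, and all 5 were found by their symbols among the 55401 gene identifiers counted in these libraries. They encode small secreted C-C chemokines, proteins that bind receptors on leukocytes and direct them toward a source. Ccl2 and Ccl7 are the classical attractants of Ccr2-bearing monocytes, Ccl12 is a rodent ligand of the same receptor, Ccl8 is a related attractant made mainly by macrophages, and Ccl11 (eotaxin) acts on eosinophils through Ccr3. In the injured brain, microglia are known as a source of Ccl2 and its relatives, and monocytes enter from the blood. HDAC3, a histone deacetylase, works in corepressor complexes that hold genes in a less active state.

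RNA was sequenced from CD11b+CD45int microglia sorted from male mice of 4 groups, with 3 biological replicates in each. WT mice were CX3CR1 wt/wt: HDAC3 loxp/loxp and had no CreER, whereas HDAC3-miKO mice were CX3CR1 CreER/wt: HDAC3 loxp/loxp and so had lost one Cx3cr1 allele to the CreER that drives the deletion. Tamoxifen was given for 5 days at 6 to 8 weeks of age, and at least a month later the mice underwent 60 min of transient focal cerebral ischemia (tFCI) of the left middle cerebral artery or the Sham procedure. WT-tFCI and miKO-tFCI cells were taken on day 3, each replicate pooled cells from 3 to 4 hemispheres, and replicate 1 of each group belonged to sequencing batch 1 and replicates 2 and 3 to batch 2. Because the CreER, the missing Cx3cr1 allele and the loss of HDAC3 came together, their parts in a genotype difference cannot be told apart.

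Reads on genes numbered 7697864 to 9452222 per library. Hdac3 itself lay between 35.0 and 46.4 CPM (reads of a gene scaled to a common library size) in WT-Sham and between 20.9 and 25.8 in miKO-Sham, and between 43.9 and 54.0 in WT-tFCI against 27.1 to 36.0 in miKO-tFCI. These ranges did not overlap between genotypes. CPM here were scaled by edgeR's TMM library sizes. A gene was called (a DEG) where its adjusted p was below 0.05 and its log2 fold change exceeded 0.58 in either direction. miKO-Sham replicates 1 and 2 were the most alike pair of the series (chi-square per degree of freedom 2.82, other pairs of replicates 3.65 to 76.6), although the labels place them in different batches, and the file names of both point to one sample name. They were kept as separate libraries, and results with miKO-Sham were also computed without either.

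All 5 genes lie on the plus strand within 81.2 kb of chromosome 11 (GRCm38, 82035571 to 82116799). From left to right they are Ccl2 (ENSMUSG00000035385.5, 82035571 to 82037453), Ccl7 (ENSMUSG00000035373.2, 82045712 to 82047525), Ccl11 (ENSMUSG00000020676.2, 82057823 to 82062955), Ccl12 (ENSMUSG00000035352.3, 82101845 to 82103400) and Ccl8 (ENSMUSG00000009185.2, 82115185 to 82116799). Ccl2 sits inside an intron of the minus-strand gene Gm17268 with 0 bases of shared exon. The coding sequences are shown around the paired cysteine codons (in capitals) that give C-C chemokines their name, because they let the kinship and the differences of these genes be seen side by side. Each stretch has 48 bases of the GENCODE coding transcript on GRCm38, 5′ to 3′ on the plus strand, and the codon pair lies in exon 2 of 3 in all 5 genes, at 82036506 to 82036511 in Ccl2, 82046538 to 82046543 in Ccl7, 82061696 to 82061701 in Ccl11, 82102634 to 82102639 in Ccl12 and 82116056 to 82116061 in Ccl8.
Ccl2: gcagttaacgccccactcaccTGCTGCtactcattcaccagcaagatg
Ccl7: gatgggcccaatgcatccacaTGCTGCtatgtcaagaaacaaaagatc
Ccl11: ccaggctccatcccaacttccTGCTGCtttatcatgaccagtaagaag
Ccl12: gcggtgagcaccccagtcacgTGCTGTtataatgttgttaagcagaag
Ccl8: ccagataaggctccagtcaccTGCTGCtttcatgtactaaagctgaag

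Over the coding sequence, identity between the 10 pairs of genes ranged from 64.6% (Ccl8 and Ccl11) to 73.3% (Ccl2 and Ccl8). The longest stretch without a difference between any pair of transcripts had 23 bases (Ccl2 and Ccl7), against sequenced reads of 150 bases. The genes are therefore kin, but no stretch as long as a read was common to a pair of these transcripts.

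All genes of the cluster were higher after ischemia in the cells sorted from WT mice. In WT-tFCI vs. WT-Sham, all 5 genes were called higher and 0 lower, whereas 32.6% of the 16451 genes tested were called, 20.9% higher and 11.7% lower. Their median log2 fold change was 2.08 against 0.02 over all genes. Among those with reads in both groups, the fitted rise lay between 3.10-fold (Ccl7) and 4.29-fold (Ccl2).

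Ccl2 stood at 63.7, 48.6 and 45.6 CPM in the WT-Sham libraries and at 199, 260 and 218 CPM in the WT-tFCI libraries, in the order of their replicates. Its groups lay far apart, and the log2 fold change was 2.10 (standard error 0.19, edgeR adjusted p = 8.06e-07). Ccl7 had 20.3, 19.0 and 18.6 CPM in WT-Sham and 65.6, 64.3 and 49.6 CPM in WT-tFCI. It was the least variable gene at rest and rose by a log2 fold change of 1.63 (standard error 0.18, edgeR adjusted p = 5.84e-06).

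Ccl12 was read most often, with 196, 208 and 167 CPM in WT-Sham and 481, 801 and 645 CPM in WT-tFCI. The rise was 1.73 on the log2 scale (standard error 0.18, edgeR adjusted p = 4.12e-06), and even its lowest WT-tFCI library was above every WT-Sham library. Ccl8 was scarce at rest, at 2.88, 2.35 and 2.05 CPM, and reached 7.18, 14.7 and 10.5 CPM in WT-tFCI. The rise was 2.08 on the log2 scale (standard error 0.38, edgeR adjusted p = 0.000669), with 1.25 within batch 1 and 2.37 within batch 2.

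Ccl11 had 0 reads in each of the 3 WT-Sham libraries and 34, 11 and 11 reads in the WT-tFCI libraries. Against a floor of 3 counts over the WT-Sham group, the pooled WT-tFCI reads stood 20.0-fold higher. That ratio leaves out the spread among the WT-tFCI libraries (4.07, 1.27 and 1.34 CPM). The gene was called higher (edgeR adjusted p = 0.000236). The 34 reads belonged to replicate 1, which also held most RNA of fibroblast genes: the summed level of the 8 fibroblast and stromal markers was 1077 CPM there, against 241 and 249 CPM in the other WT-tFCI libraries and 3.13 to 5.85 CPM in WT-Sham. Whether those cells carried the Ccl11 reads was not tested.

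**Figure D1:**
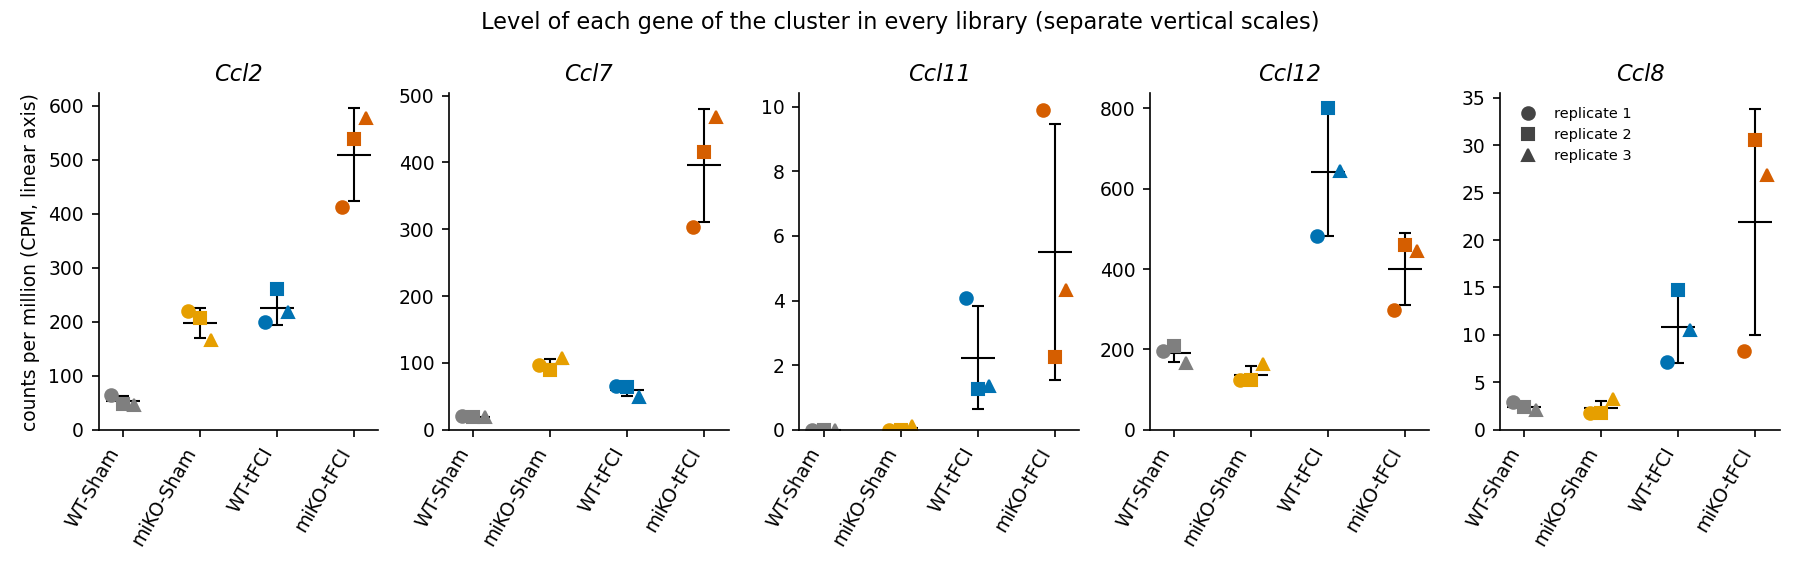
CPM of Ccl2, Ccl7, Ccl11, Ccl12 and Ccl8 (vertical axes, linear, each gene on its own scale) in the 12 libraries; symbols mark replicates, and bars give the mean and SD of 3 libraries. The miKO-tFCI libraries stand above all others for Ccl2 and Ccl7 (413 to 577 and 303 to 468 CPM), whereas for Ccl12 the WT-tFCI libraries are highest (481 to 801 CPM).

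Without ischemia, only part of the cluster passed the test between genotypes. Ccl2 and Ccl7 were called higher in miKO-Sham than in WT-Sham and 0 genes of the cluster lower, whereas of all genes tested 15.4% were called, 8.58% higher and 6.8% lower. Ccl12 and Ccl8 did not pass the test, and Ccl11 had a single read. The same calls were made without miKO-Sham replicate 1 or without replicate 2, which resembled each other closely (Ccl2 at 1.80 or 1.89, Ccl7 at 2.32 or 2.42 and Ccl12 at -0.55 or -0.36 on the log2 scale).

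Ccl2 read 221, 207 and 167 CPM in miKO-Sham, well above the WT-Sham libraries of 45.6 to 63.7 CPM. The log2 fold change was 1.91 (standard error 0.18, edgeR adjusted p = 4.80e-06), a 3.77-fold rise. Ccl7 had 97.2, 89.8 and 107 CPM, against 18.6 to 20.3 CPM in WT-Sham. It rose 5.06-fold, a log2 fold change of 2.34 (standard error 0.18, edgeR adjusted p = 6.16e-07).

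Ccl12 pointed the other way, with 125, 123 and 163 CPM in miKO-Sham against 167 to 208 CPM in WT-Sham. The ranges touched closely without overlapping, and the log2 difference of -0.49 (standard error 0.18) had an adjusted p of 0.0695 by edgeR. When library totals were used without the TMM factors, Ccl12 was called lower (log2 fold change -0.75, edgeR adjusted p = 0.00533), and that scaling moved the median of all genes in this comparison from 0.04 to -0.23. It was also called without WT-Sham replicate 3 (-0.65, edgeR adjusted p = 0.0407). Ccl8 had 1.8, 1.8 and 3.2 CPM, within the reach of the WT-Sham libraries. Its difference of -0.14 had a 95% interval from -1.06 to 0.79, a wide one at 13 to 25 reads per library, so that a difference of that size was not detectable at this depth. Ccl11 had 0, 0 and 1 read.

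After ischemia, Ccl2 and Ccl7 were again higher in the cells sorted from HDAC3-miKO mice, and Ccl12 was lower. In miKO-tFCI vs. WT-tFCI, 2 genes of the cluster were called higher and 1 lower, whereas of all genes tested 8.79% were called, 4.08% higher and 4.71% lower. The highest levels of Ccl2 and Ccl7 in the series were thus in miKO-tFCI, whereas Ccl12 was highest in WT-tFCI.

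Ccl7 showed the largest genotype difference of the cluster. Its miKO-tFCI libraries had 303, 416 and 468 CPM, against 49.6 to 65.6 CPM in WT-tFCI, a 6.58-fold difference (log2 2.72, standard error 0.17, edgeR adjusted p = 4.84e-07). Ccl2 had 413, 539 and 577 CPM, against 199 to 260 CPM in WT-tFCI. This 2.26-fold difference (log2 1.17, standard error 0.18, edgeR adjusted p = 0.000856) was 1.05 within batch 1 and 1.23 within batch 2 on the log2 scale.

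Ccl12 fell to 298, 461 and 444 CPM, all below the WT-tFCI libraries of 481 to 801 CPM. The log2 fold change was -0.68 (standard error 0.17, edgeR adjusted p = 0.0226), -0.69 within batch 1 and -0.67 within batch 2. The call was close to the threshold and was lost without WT-tFCI replicate 2 (-0.54, adjusted p = 0.142), WT-tFCI replicate 3 (-0.73, 0.0752), miKO-tFCI replicate 1 (-0.60, 0.0791) or miKO-tFCI replicate 3 (-0.72, 0.0611) in edgeR.

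Ccl8 had 8.26, 30.5 and 26.9 CPM in miKO-tFCI, overlapping the 7.18 to 14.7 CPM of WT-tFCI. Its difference of 0.94 (95% interval 0.22 to 1.66) had an edgeR adjusted p of 0.0931, and it was 0.20 within batch 1 and 1.19 within batch 2. Without miKO-tFCI replicate 1 the gene was called (log2 fold change 1.29, edgeR adjusted p = 0.0178). Markers of border-associated macrophages did not all follow that order of replicates. Mrc1, a mannose receptor of these cells, had 17.4 CPM there and 143 and 162 CPM in replicates 2 and 3, against 18.3, 65.1 and 56.7 CPM in WT-tFCI. Lyve1, a hyaluronan receptor, had 4.23, 33.4 and 58 CPM in miKO-tFCI and 3.83, 13.4 and 9.63 CPM in WT-tFCI. Both were thus lowest in replicate 1 of miKO-tFCI, whereas Pf4, a platelet factor also made by these cells, was highest there (123, 84 and 68.1 CPM, against 49.4, 42.4 and 40.5 CPM in WT-tFCI). The 9 markers of this cell type other than Stab1, which was read at 445 to 1576 CPM in every library, summed to 363, 684 and 870 CPM in miKO-tFCI and 197, 306 and 285 CPM in WT-tFCI. Replicate 1 had the lowest sum in both groups, yet in miKO-tFCI it stood above every WT-tFCI library. The removal of Stab1 was not planned beforehand. With Stab1, the sum in replicate 1 of miKO-tFCI was 1024 CPM, below the highest WT-tFCI library (1056 CPM). The part of these cells in the Ccl8 values was not tested.

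Ccl11 had 96, 18 and 35 reads in miKO-tFCI (9.91, 2.26 and 4.33 CPM) against 4.07, 1.27 and 1.34 CPM in WT-tFCI. The groups overlapped, and the difference of 1.30 (95% interval 0.19 to 2.42) had an edgeR adjusted p of 0.131. As in WT-tFCI, the library richest in Ccl11 was replicate 1, whose fibroblast and stromal markers summed to 2097 CPM against 612 and 724 CPM in the other miKO-tFCI libraries.

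All genes of the cluster were also higher after ischemia in the cells sorted from HDAC3-miKO mice. In miKO-tFCI vs. miKO-Sham, 5 genes were called higher and 0 lower, whereas of all genes tested 35.8% were called, 21.9% higher and 13.9% lower. Ccl2 rose 2.57-fold (log2 1.36, standard error 0.18, edgeR adjusted p = 3.87e-05) and Ccl7 4.03-fold (log2 2.01, standard error 0.17, edgeR adjusted p = 6.82e-07). Ccl12 rose 2.89-fold (log2 1.53, edgeR adjusted p = 1.32e-05) and Ccl8 8.93-fold (log2 3.16, edgeR adjusted p = 2.36e-05). For Ccl11, 149 reads in all stood against 1, a ratio of 129 with a 95% counting interval from 22.7 to 5115 (edgeR adjusted p = 8.49e-05). Without miKO-Sham replicate 1 or 2, all 5 were still called.

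Whether the effect of ischemia differed between genotypes was tested by the interaction of genotype and surgery. None of the cluster was called by edgeR or by DESeq2, whereas edgeR called 3.82% of all genes tested (1.25% positive and 2.57% negative). Ccl2 alone had an unadjusted p under 0.05 in edgeR. The Ccl2 interaction was -0.74 (95% interval -1.28 to -0.20, unadjusted p = 0.0101, adjusted p = 0.129), that is, a smaller fitted rise in miKO than in WT libraries. It was called without WT-Sham replicate 1 (-0.97, adjusted p = 0.0383) and without the filter on low counts (-0.76, adjusted p = 0.0198). The intervals of the others were -0.13 to 0.89 for Ccl7, -0.09 to 2.25 for Ccl8, -0.72 to 0.33 for Ccl12 and -2.40 to 0.97 for Ccl11.

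**Figure D2:**
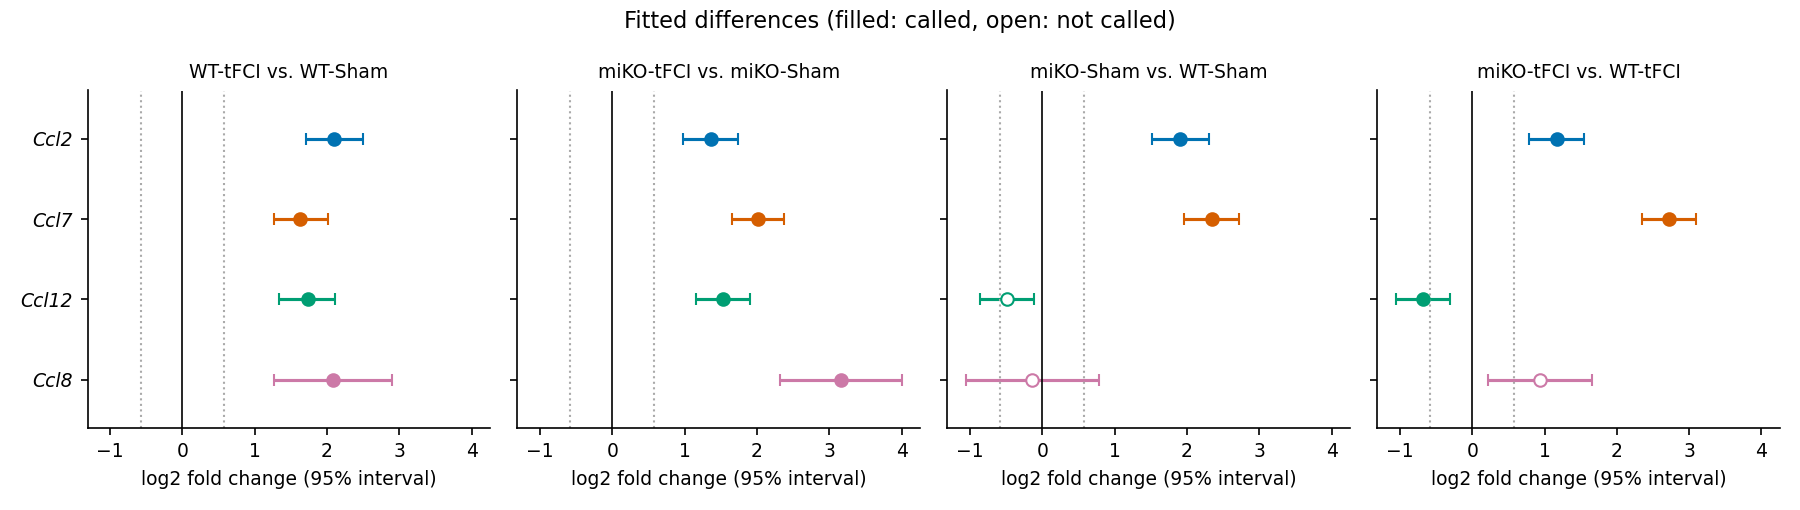
Log2 fold changes (horizontal axis) of Ccl2, Ccl7, Ccl12 and Ccl8 with 95% intervals in 4 comparisons; filled points were called, open points were not, and dotted lines mark the 0.58 threshold. Both surgery comparisons lie to the right for all 4 genes (1.36 to 3.16), whereas in the genotype comparisons Ccl2 and Ccl7 lie to the right (1.17 to 2.72) and Ccl12 to the left (-0.49 and -0.68).

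Ordered by level, Ccl2 rose from WT-Sham (52.6 ± 9.72 CPM, SD, n = 3) through miKO-Sham (198 ± 28.2) and WT-tFCI (226 ± 30.9) to miKO-tFCI (510 ± 86.1), and only the middle pair of groups overlapped. For Ccl7 the order was WT-Sham (19.3 ± 0.902 CPM), WT-tFCI (59.8 ± 8.89), miKO-Sham (97.8 ± 8.42) and miKO-tFCI (396 ± 84.5), with no overlap between neighbours. The miKO genotype without ischemia thus went along with more Ccl7 than ischemia in the WT genotype, a contrast given here by its values only. For Ccl12 the order was miKO-Sham (137 ± 22.7 CPM), WT-Sham (190 ± 21), miKO-tFCI (401 ± 89.8) and WT-tFCI (643 ± 160), again with no overlap between neighbours. Ccl8 had 2.27 ± 0.807 and 2.43 ± 0.422 CPM in the Sham groups and 10.8 ± 3.75 and 21.9 ± 12 CPM in WT-tFCI and miKO-tFCI, and within each surgery the genotypes overlapped.

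The make-up of the cluster differed by genotype. To compare genes, CPM were divided by the length of their exons, since a longer transcript yields more reads. Ccl12 made up 80.7% to 84.5% of the summed CPM per kb of the 5 genes in WT-Sham and 76.5% to 81.5% in WT-tFCI, but 42.2% to 51.5% in miKO-Sham and 41.8% to 44.9% in miKO-tFCI. Ccl2 made up 9.33% to 12.4% and 12.5% to 15% in WT-Sham and WT-tFCI, and 24.9% to 35.2% and 24.8% to 27.5% in miKO-Sham and miKO-tFCI. Ccl7 made up 5.19% to 6.14% and 4.19% to 6.99% in the WT groups, and 21.3% to 22.6% and 27.1% to 29.6% in the miKO groups.

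Ccl8 and Ccl11 remained minor, at no more than 3.12% and 0.694% in any library. The sum itself was 378 to 458 CPM per kb in WT-Sham and 526 to 589 in miKO-Sham, and the tFCI groups overlapped (1171 to 1831 in WT-tFCI and 1321 to 1974 in miKO-tFCI). The exon length of Ccl2 (1138 bases) includes a transcript that retains an intron. With the coding transcript alone (813 bases), Ccl2 made up 31.5% to 34.6% of the sum in miKO-tFCI and exceeded Ccl7 (24.7% to 26.8%), so that the order of these genes per length in miKO-tFCI depends on the length used. Ccl12 remained the largest in WT-Sham and WT-tFCI by either length (72.2% to 84.5%).

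**Figure D3:**
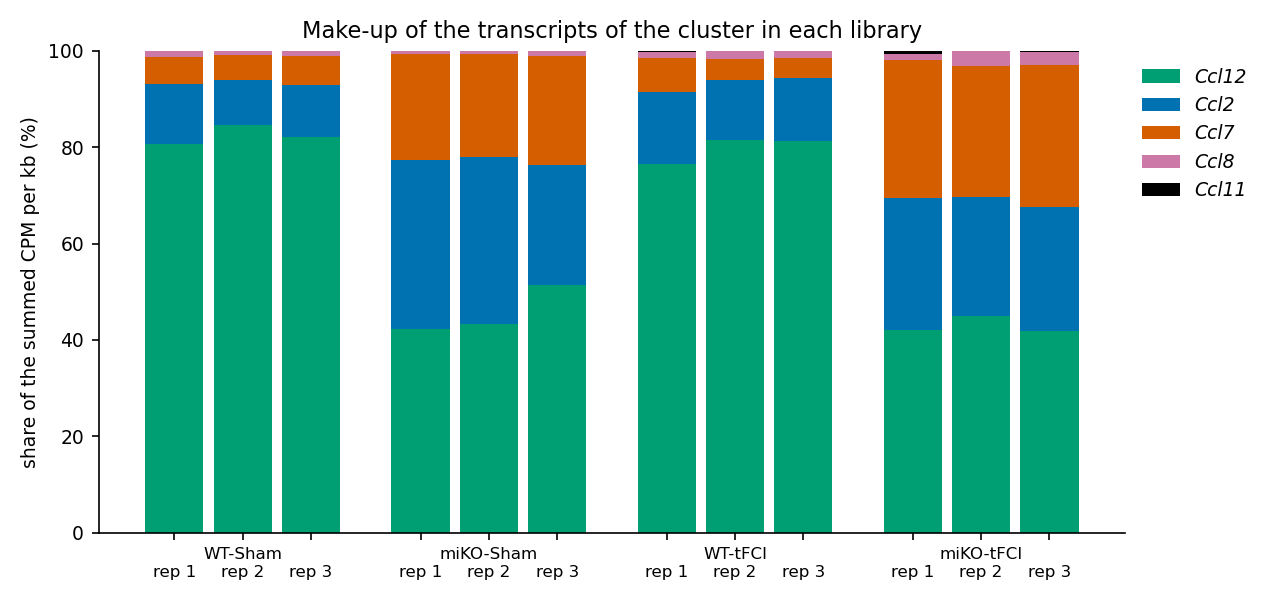
Share of each gene (stacked, vertical axis in percent) in the summed CPM per kb of the 5 genes, 1 bar per library. Ccl12 takes 76.5% to 84.5% of every WT bar and 41.8% to 51.5% of every miKO bar, in Sham and tFCI alike.

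Ratios within a library, which do not depend on its scaling, showed the same shift. The log2 ratio of Ccl12 to Ccl2 counts was 1.62, 2.09 and 1.87 in WT-Sham and 1.27, 1.62 and 1.56 in WT-tFCI, but -0.82, -0.76 and -0.03 in miKO-Sham and -0.47, -0.23 and -0.38 in miKO-tFCI. Each WT library thus had more Ccl12 than Ccl2 reads and each miKO library fewer. Over both surgeries the genotype difference was -2.12 (exact permutation test within surgery, two-sided, p = 0.005, the smallest these samples allow, adjusted p = 0.025 over 10 ratio tests), and it was -2.09 within batch 1 and -2.14 within batch 2. Without miKO-Sham replicate 1 or 2 it was -2.05 or -2.07, with no p computed. The permutations here and for Ccl7 to Ccl2 ignored batch and counted miKO-Sham replicates 1 and 2 as separate libraries.

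The log2 ratio of Ccl7 to Ccl2 moved with genotype as well. It was -1.65, -1.35 and -1.29 in WT-Sham, -1.18, -1.21 and -0.65 in miKO-Sham, -1.60, -2.01 and -2.14 in WT-tFCI, and -0.45, -0.37 and -0.30 in miKO-tFCI. The genotype difference over both surgeries was 0.98 (exact permutation test within surgery, two-sided, p = 0.005, adjusted p = 0.025), with 0.81 within batch 1 and 1.07 within batch 2. The difference was 1.54 among tFCI libraries and 0.42 among Sham libraries, each with an exact p = 0.1 (adjusted p = 0.143), the smallest that 3 libraries against 3 allow.

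**Figure D4:**
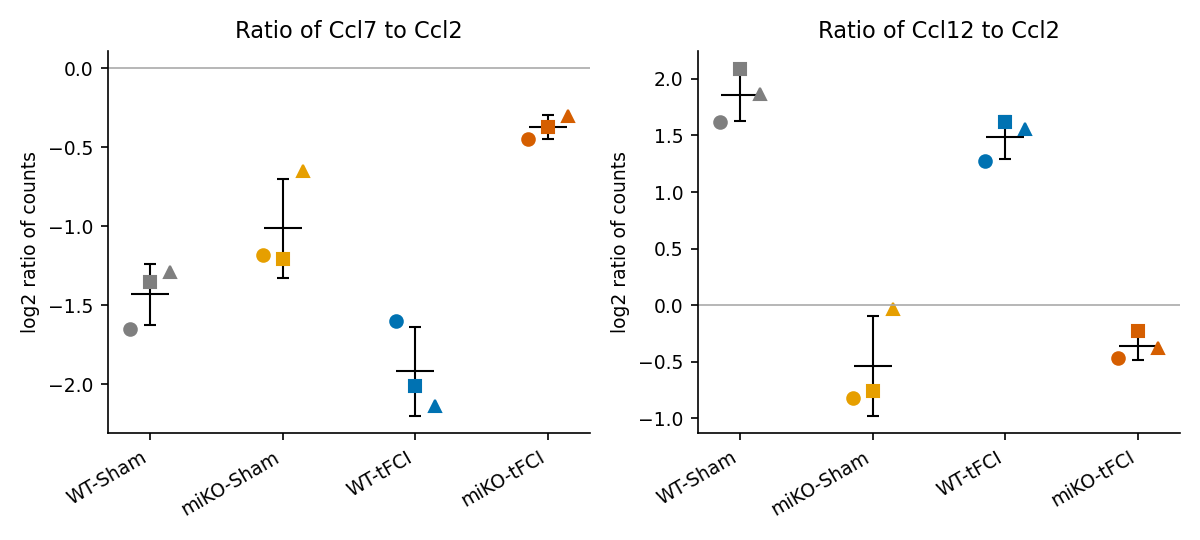
Log2 ratio of counts (vertical axes) of Ccl7 to Ccl2 and of Ccl12 to Ccl2 in the 12 libraries by group; symbols mark replicates 1 (circle), 2 (square) and 3 (triangle), and bars give the mean and SD of 3 libraries. For Ccl12 to Ccl2, WT libraries lie between 1.27 and 2.09 and miKO libraries between -0.82 and -0.03. For Ccl7 to Ccl2, the miKO-tFCI libraries are highest (-0.45 to -0.30).

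Across the 12 libraries, which fall into 4 groups of 3, the log2 CPM of Ccl2 was most like that of Ccl7 within the cluster, and that of Ccl8 most like that of Ccl12. Ccl2 and Ccl7 had a Pearson r of 0.94, and Ccl8 and Ccl12 of 0.86, all given as descriptions. Further pairs came near the latter value, as Ccl11 had 0.81 to Ccl8, 0.74 to Ccl2 and 0.73 to Ccl12, and Ccl2 and Ccl8 had 0.75. The least alike were Ccl7 and Ccl12 (0.28) and Ccl2 and Ccl12 (0.48). Most like Ccl2 among the genes tested were Plin2 (r = 0.987), a coat protein of lipid droplets, Adam8, Cd300ld, Akr1a1 and Gm17122. Most like Ccl7 were Gsr (r = 0.970), glutathione reductase, Gm21399, Prelid3b, Prdx1, a peroxiredoxin, and Ms4a7.

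Ccl8 was most like Vsig4 (r = 0.977), a complement receptor of macrophages, Nucb2, 2010111I01Rik, Ms4a6d and 4930430E12Rik. Ccl12 was most like Prune2 (r = 0.983), Kif15, a mitotic kinesin, Fancd2, a DNA repair protein, Gusb and Tesk1. Ccl11 was most like Hey1 (r = 0.996), Foxf2, Emcn, an endothelial sialomucin, Has2, a hyaluronan synthase, and Il11. These lists for Ccl11 rest on libraries that are mostly at 0 reads in Sham.

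Promoter sequence was read for 2 genes of the cluster, Ccl12 and Ccl8, and is shown for both with the motifs found in it. RefSeq entries on GRCm38.p6 gave 250 bases before each start on the plus strand, chr11:82101595-82101844 for Ccl12 and chr11:82114935-82115184 for Ccl8. Capitals mark TATAAA and, in Ccl12, a match of the PU.1 motif AGGAAGT on the minus strand.
Ccl12: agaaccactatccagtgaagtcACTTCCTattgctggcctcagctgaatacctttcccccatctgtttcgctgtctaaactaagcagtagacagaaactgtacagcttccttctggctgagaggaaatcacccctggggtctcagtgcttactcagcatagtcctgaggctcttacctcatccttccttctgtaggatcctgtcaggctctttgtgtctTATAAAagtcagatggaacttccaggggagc
Ccl8: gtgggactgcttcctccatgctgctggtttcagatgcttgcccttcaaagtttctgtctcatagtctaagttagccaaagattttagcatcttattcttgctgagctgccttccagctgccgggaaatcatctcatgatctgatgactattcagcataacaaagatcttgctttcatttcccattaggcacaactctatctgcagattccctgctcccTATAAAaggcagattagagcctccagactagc

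Both windows held TATAAA close to the start, from -31 to -26 in Ccl12 and from -32 to -27 in Ccl8, a motif found in 13.6% of 32851 promoters. The PU.1 motif was at -228 to -222 in Ccl12 and occurs in 9.35% of promoters. On either strand, from 250 bases before to 50 after the start, neither window held GGGCGG (35.7% of promoters), TGANTCA (AP-1, 7.81%), TTCNNNGAA (GAS, 8.3%), the ISRE-like motif of GAAA, any 2 bases and GAAA (3.44%) or the NF-kB consensus (11.2%). These are matches of letters only. Promoters of Ccl2, Ccl7 and Ccl11 are not shown.

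The differences were also set beside those of the genes next to the cluster. Of 41 other annotated genes that start within 1000 kb, 12 were tested, and they lie 728.8 to 1029.5 kb from the start of Ccl2. In miKO-tFCI vs. WT-tFCI none of the 12 was called, with log2 fold changes from -0.37 to 0.60. Of all genes tested, 8.79% were called there, and with 12 neighbours 0 calls lies near that share. In miKO-Sham vs. WT-Sham, where 15.4% of all genes were called, 3 neighbours were. Slfn5 was higher (log2 1.10, edgeR adjusted p = 0.0152) and Slfn8 (-0.79, 0.0141) and Slfn10-ps (-2.02, 0.0307) were lower, all of the Schlafen family. Ischemia raised 5 Schlafen entries in WT mice, among them Slfn2 (log2 2.12, edgeR adjusted p = 2.21e-06), and lowered Rffl and Zfp830. The share over all genes was 20.9% higher and 11.7% lower in that comparison.

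**Figure D5:**
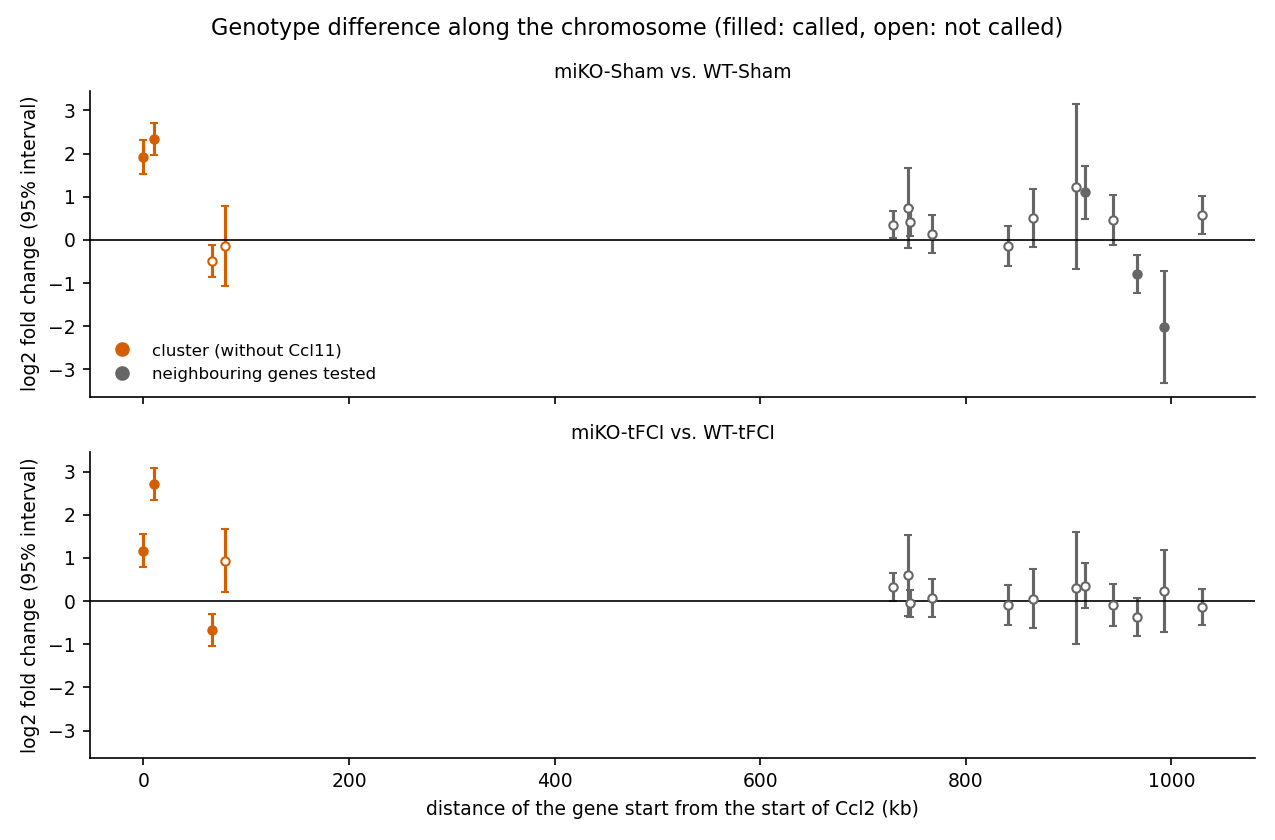
Log2 fold change with 95% interval (vertical axes) against the distance of each gene's start from that of Ccl2 in kb, for miKO-Sham vs. WT-Sham and miKO-tFCI vs. WT-tFCI; filled points were called. In the lower panel the 12 neighbours tested lie between -0.37 and 0.60, whereas Ccl7 reaches 2.72. In the upper panel the neighbours lie between -2.02 and 1.23, with 1 called higher and 2 lower, and Ccl7 reaches 2.34. Ccl11 is left out because its Sham libraries held 1 read in all.

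The receptors of these ligands changed in both directions. In miKO-tFCI vs. WT-tFCI, Ccr1, Ccr2 and Ackr1 were called higher and Ccrl2 lower, beside 4.08% and 4.71% of all genes tested. Ccr1, which binds Ccl7 among others, had 69, 116 and 182 CPM in miKO-tFCI against 30.5 to 35.2 CPM in WT-tFCI (log2 1.81, edgeR adjusted p = 0.0054). Ccr2, the receptor of Ccl2, Ccl7 and Ccl12, had 75.9, 18.5 and 22.4 CPM against 21.4, 3.35 and 3.17 CPM (log2 2.16, edgeR adjusted p = 0.0149). Replicate 1 was the highest in both groups, and Ccr2 is also one of the monocyte markers described below.

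Ccrl2, an atypical receptor, had 155 to 195 CPM in miKO-tFCI against 388 to 571 CPM in WT-tFCI (log2 -1.54, edgeR adjusted p = 1.12e-05). Ackr1, a scavenger of chemokines on red cells and venules, had 48.9, 16.5 and 11.4 CPM against 11.1, 6.12 and 2.31 CPM (log2 1.87, edgeR adjusted p = 0.00525). Ccr3, the receptor of Ccl11, was tested and not called in these comparisons (0.388 to 2.20 CPM on average), and Ackr2 had too few reads to be tested.

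Cytokines known to induce the cluster and their receptors were called in both directions in miKO-tFCI. Of 18 tested among 20 inducing cytokines and their receptors, 1 was higher in miKO-tFCI than in WT-tFCI (Il4ra) and 5 lower (Csf1, Tnf, Il1a, Il6ra and Tlr2). The median log2 fold change of the 18 was 0.03, against 0.04 over all genes, of which 4.08% were called higher and 4.71% lower. Tnf had a mean of 299 CPM in miKO-tFCI and 583 CPM in WT-tFCI (log2 -0.97, edgeR adjusted p = 0.0163). In miKO-Sham vs. WT-Sham, 6 were higher and 0 lower (Ifnar2, Tnf, Il1b, Tlr2, Tnfrsf1b and Il4ra). Over all genes tested, 8.58% were higher there and 6.8% lower. The median of the 18 was 0.46, against 0.04 over all genes. Il1b rose there from 40.6 to 327 CPM on average (log2 3.03, edgeR adjusted p = 1.44e-06).

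Over all genes tested, 4.08% were called higher in miKO-tFCI than in WT-tFCI and 4.71% lower. Among 20 transcription factors and regulators known to act on chemokine genes, 0 were higher there and 5 lower. The median log2 fold change of the 20 was -0.36, against 0.04 over all genes. The 5 lower were Rel, Nfkb1 and Nfkb2, subunits of NF-kB, Nfkbia, its inhibitor, and Jun, a subunit of AP-1. Nfkbia fell from 1927 to 952 CPM on average (log2 -1.01, edgeR adjusted p = 0.000385). In miKO-Sham vs. WT-Sham, 2 of the 20 were higher (Irf7 and Stat2) and 2 lower (Fos and Jun). Of all genes, 8.58% were higher there and 6.8% lower. The median of the 20 was 0.01, against 0.04 over all genes. Of 7 RNA-binding proteins that act on chemokine transcripts, 2 were lower in miKO-tFCI than in WT-tFCI and 0 higher. These were Zc3h12a (log2 -1.35, edgeR adjusted p = 0.000297) and Zfp36 (log2 -0.81, edgeR adjusted p = 0.00471), which both promote decay of such transcripts. In miKO-Sham vs. WT-Sham, 0 of the 7 were called, beside 15.4% of all genes.

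Of 8 tested proteases that trim these ligands, 4 were called higher in miKO-tFCI than in WT-tFCI and 0 lower. The share over all genes tested was 4.08% higher and 4.71% lower. In miKO-Sham vs. WT-Sham, 3 of the 8 were higher and 1 lower (Mmp14), beside 8.58% and 6.8% of all genes. Those higher in miKO-tFCI than in WT-tFCI were Mmp8, which is also among the neutrophil markers below, Mmp2, Mmp3 and Mmp12. Of these, Mmp12, the macrophage elastase, had a mean of 133 CPM against 10.0 CPM (log2 3.73, edgeR adjusted p = 1.16e-05). Among 8 other C-C ligands tested, Ccl24, Ccl6 and Ccl22 were higher in miKO-tFCI than in WT-tFCI and Ccl3 and Ccl4 lower. Ccl3 had 800 CPM on average in miKO-tFCI and 1893 CPM in WT-tFCI (log2 -1.24, edgeR adjusted p = 0.00968), the reverse of Ccl2 and Ccl7, but Ccl3 was called higher in miKO-Sham vs. WT-Sham (log2 0.98, edgeR adjusted p = 0.0194).

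The levels are those of a sorted population, in which fewer cells of a type and less RNA per cell cannot be told apart. Microglial markers, 10 in all, summed to 24132 to 31785 CPM in WT-Sham and 20726 to 25731 in miKO-Sham. In WT-tFCI the sum was 16983 to 18850 CPM and in miKO-tFCI 8317 to 16248, and none of the markers was at 0. The 10 include Cx3cr1, of which miKO mice lacked 1 allele. Its means were 3862 CPM in WT-Sham, 1196 in miKO-Sham, 1527 in WT-tFCI and 438 in miKO-tFCI. Of the 10, 4 were called lower in miKO-Sham vs. WT-Sham, Cx3cr1 among them, and 1 higher (Fcrls), beside 6.8% and 8.58% of all genes. The 11 monocyte and macrophage markers summed to 14.4 to 94.7 CPM in WT-Sham and 62.8 to 123 in miKO-Sham. In WT-tFCI they summed to 381 to 670 CPM and in miKO-tFCI to 468 to 1013 CPM. Fn1, fibronectin, made up most of the sum in WT-tFCI (296 to 446 CPM) and stood at 122 to 358 CPM in miKO-tFCI. The removal of Fn1 was not planned beforehand. Without Fn1, the other 10 markers summed to 655, 331 and 407 CPM in miKO-tFCI against 224, 84.4 and 80.8 CPM in WT-tFCI. The groups did not overlap without Fn1, but they did with it. Of the 11 markers, 3 of 10 tested were called higher and 0 lower in miKO-tFCI vs. WT-tFCI, and 1 higher in miKO-Sham vs. WT-Sham. Over all genes tested, 4.08% were higher and 4.71% lower in the former comparison, and 8.58% higher in the latter. Ly6c2, which defines classical monocytes, was highest in replicate 1 of both tFCI groups (68 CPM in miKO-tFCI and 23 CPM in WT-tFCI) and at 11.2 and 11.4 against 1.96 and 1.1 CPM in replicates 2 and 3.

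Chil3, a chitinase-like protein of myeloid cells, had 304, 239 and 311 CPM in miKO-tFCI against 117, 48.5 and 44.5 CPM in WT-tFCI. The summed level without Fn1 was thus higher in miKO-tFCI in both batches, as were Ccl2 and Ccl7. The log2 differences of Ccl2 and Ccl7 were 1.23 and 2.96 within batch 2 and 1.05 and 2.20 within batch 1. Replicate 1 of miKO-tFCI had the highest sum without Fn1 but the lowest Ccl2 (413 CPM) and Ccl7 (303 CPM) of its group. In WT-tFCI, replicate 1 also had the highest sum, with the lowest Ccl2 (199 CPM) and the highest Ccl7 (65.6 CPM). Neutrophil markers, 8 in all, summed to 656 to 897 CPM in miKO-tFCI and 145 to 196 in WT-tFCI, and to 310 to 328 in miKO-Sham against 789, 70.6 and 46.2 in WT-Sham. Endothelial markers summed to 72.7 to 197 and 41.7 to 131 CPM in miKO-tFCI and WT-tFCI. Of the neutrophil markers, 5 of 7 tested were called higher in miKO-tFCI vs. WT-tFCI and 0 lower, against 4.08% and 4.71% of all genes. What these cells contributed to the levels of the cluster was not tested.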

How the data were processed

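Per the labels and the study's methods, flow-sorted microglia of 12 mouse libraries were sequenced in paired ends. The authors trimmed, aligned and counted the reads, and deposited raw counts per gene without normalization. The submitters' processing notes name FastQC 0.11.9, HISAT2 2.2.1, HTSeq 1.99.2 and builds mm10 and GRCm38.p6. Between 30.7% and 38.5% of reads were counted on genes. Another 45.3% to 52.5% lay on no gene, and these and all others not assigned to a gene were left out. The study names a Cytek Aurora sorter, the labels a CytoFLEX SRT.

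Counts were fitted in R 4.3.3 with edgeR 4.0.16 (filterByExpr, TMM, quasi-likelihood, group and batch over 12 libraries), with Benjamini-Hochberg adjustment over 16451 genes. DESeq2 1.42.0 was an alternative. The steps were tested on simulated data. Groups came from the labels. Same-numbered libraries deviated together in WT-tFCI and miKO-tFCI (correlations of deviations 0.324 to 0.666 in 3 pairs), which does not separate pairing from batch. The main fit held batch but no term for pairs, and a block of replicate numbers was an alternative. The ratio tests shuffled libraries without regard to pairs or batch. In each other pair of groups at least 1 correlation was below 0.1. Levels per length used merged exons of GENCODE M21. Ratios had 0.5 added to each count. The counting interval of a ratio of reads covers counting error only. Named genes were the 5 members, Hdac3, the 5 genes most correlated with each, called list members up to 6, the listed receptors (1 is not reported here) and called neighbours. The members and lists were chosen with earlier results of these data known.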

Additional observations from a re-analysis of the deposited data

How the results depend on the processing

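Of 514 log2 fold changes of the 5 genes recomputed under alternatives, 500 kept their direction and their side of the threshold, or were uncalled in both. Ccl8 in miKO-tFCI vs. WT-tFCI became called without the filter on low counts (0.91), with only the groups compared (0.90) and in batch 2 only (1.15), and ranged from 0.72 to 1.29 with single libraries left out. Ccl11 in that comparison was called with only the groups compared (1.30). Ccl12 lost its call there without a batch term (-0.68) and ranged from -0.83 to -0.54 with single libraries left out. Ccl12 in miKO-Sham vs. WT-Sham became called with library totals (-0.75) and ranged from -0.65 to -0.30. The Ccl2 interaction became called without the filter (-0.76) and ranged from -0.97 to -0.59. The log2 ratio of Ccl7 to Ccl2 in WT-tFCI vs. WT-Sham was 0.04 within batch 1 and -0.75 within batch 2, and in miKO-tFCI vs. WT-tFCI it was 1.16 within batch 1. The causes were not tested. The length of the coding transcript, an alternative chosen after the values were seen, moved the mean share of Ccl2 in miKO-tFCI from 26% to 32.9%. Ccl11 could not be tested with at least 10 counts in every library.

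With the replicate number as a block, Ccl2 and Ccl7 in miKO-tFCI vs. WT-tFCI were 1.18 and 2.72, and 0 calls in the cluster changed. Ccl8 and Ccl11 had the fewest reads of the cluster, at most 243 and 96 per library, and Ccl8 also varied between the miKO-tFCI libraries (coefficient of variation 54.6%).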
